A study of Mus musculus with 10 samples.

Results

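Loss of Dnmt3a was compared with its presence in LSK cells, the lineage-negative, Sca1-positive and cKit-positive fraction of mouse bone marrow in which haematopoietic stem cells and multipotent progenitors are found. The comparison was made by the column names of the LSK count table and uses 5 of the 10 libraries of the series, 3 KO and 2 CTRL; the other 5 libraries are of another progenitor population and did not enter. All 5 came from C57BL/6 mice 12 months old that carried floxed alleles of Dnmt3a (Dnmt3a f/f) and had been given 5 intraperitoneal injections of poly(I:C). KO mice also carried Mx1-Cre, a Cre recombinase under an interferon-responsive promoter that poly(I:C) switches on. CTRL mice had no Cre, so loss of Dnmt3a and presence of Cre cannot be told apart in any value below. Mx1-Cre is active in blood-forming cells and in other interferon-responsive tissues, and the counts do not give the share of cells in which deletion took place. Each library is called by its genotype and its title number. Reads of Xist and of Y-linked genes put 1 library of each genotype, CTRL-1326 and KO-1327, among males, and the other 3 (CTRL-1330 with KO-1333 and KO-1334) among females.

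DNMT3A is a de novo DNA methyltransferase: it puts methyl groups on cytosines, mostly in CG pairs, that carried none before, whereas DNMT1 copies existing methylation after replication and the TET enzymes start its removal. In blood formation Dnmt3a is known for restraining stem cell self-renewal, and its human counterpart is among the genes most often mutated in clonal haematopoiesis and acute myeloid leukaemia. A promoter that is methylated is often silent, but methylation itself was not measured in these libraries.

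Each library held 29533371 to 30437981 reads counted on genes, and 17238 genes had enough reads to be tested. Values are given as CPM, read counts scaled to a common library size after correction by the trimmed mean of M-values (TMM). On the first principal component of log2 CPM, with 33.1% of the variance, the male libraries lay at −39.5 and −20.8 and the female libraries at 11.5 to 28.0. The third component, with 23.6%, placed the CTRL libraries at 9.72 and 38.4 and the KO libraries at −20.4 to −13.1. The gate was checked against its markers. Kit, the receptor that defines cKit, was at 752 to 984 CPM and Ly6a, which encodes Sca1, at 20.4 to 25.1 CPM. Markers of lineages that the sort removes were mixed. Cd3e, a T cell receptor subunit, was at 0 to 0.56 CPM, the neutrophil gene Ly6g at 0.137 to 0.886 CPM and the globin gene Hba-a1 at 0.428 to 1.5 CPM. Other genes made in mature cells were well above 0 in all 5 libraries, with S100a8 of neutrophils at 52.9 to 90.6 CPM, Lyz2 of myeloid cells at 189 to 266 CPM, Nkg7 of killer cells at 90.4 to 129 CPM, Ighm of B cells at 315 to 569 CPM and Jchain of plasma cells at 154 to 315 CPM. The 13 mitochondrially encoded genes were at 0 reads in every library.

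Few genes differed between KO and CTRL beyond the spread of the libraries. At an adjusted p under 0.05 (edgeR's quasi-likelihood test with Benjamini-Hochberg adjustment) 4 genes passed, 0.0232% of those tested, with 2 higher in KO (0.0116%) and 2 lower (0.0116%). The 2 higher genes were BC018473 and St6galnac1, neighbours on chromosome 11, and Dnmt3a was among the lower. The size of a typical difference was small: the median absolute log2 fold change was 0.10, against a median standard error of 0.15. At an unadjusted p under 0.05, 487 genes (2.83%) were found, below the 861.9 that evenly spread p-values would give, with 190 higher (1.10%) and 297 lower (1.72%). The number of calls depended on single libraries and on the tool. It was 11 without CTRL-1326 and 7 without KO-1333, and DESeq2 called 21 genes, including all 4.

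**Figure D1:**
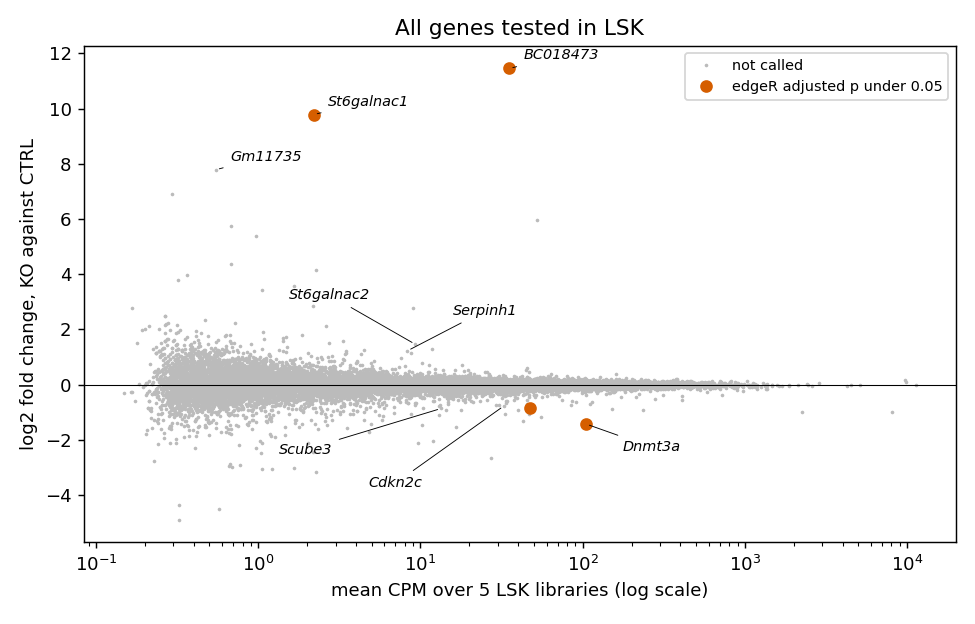
Each point is 1 of 17238 genes, with its mean CPM over the 5 LSK libraries on a log scale across and its log2 fold change of KO against CTRL upward. Large points are the 4 genes with an edgeR adjusted p under 0.05. Most genes lie close to 0, while BC018473 and St6galnac1 stand at the top and Dnmt3a lies well below 0 at a mean above 100 CPM. The fitted values of BC018473, St6galnac1 and Gm11735 depend on the model, since CTRL held at most 1 read of each.

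Dnmt3a itself (ENSMUSG00000020661, chromosome 12, 3806007 to 3914443, plus strand, GRCm38 with GENCODE vM21) was the check of the labels. It was at 169 CPM in CTRL-1326 and 168 CPM in CTRL-1330, and in KO at 64.0 CPM (KO-1327), 57.8 CPM (KO-1333) and 65.5 CPM (KO-1334). The KO libraries lay together, far below both CTRL libraries. Dnmt3a fell by 1.43 ± 0.08 on the log2 scale (SE, edgeR adjusted p = 1.06e-04), to 37.1% of the CTRL mean (95% interval of the fitted ratio 32.9% to 41.9%). The log2 difference was −1.39 between the males and −1.44 between the females. These are counts over the whole gene and include exons outside the deleted part. The antisense transcript Dnmt3aos, annotated within the gene on the other strand, was at 0.614 to 0.889 CPM in all 5 libraries, with overlapping groups. None of the 5 tested neighbours within 250 kb of Dnmt3a separated KO from CTRL, Dnmt3aos included, beside 7.56% of all genes above and 7.26% below.

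The other genes of DNA methylation did not pass the test. Of 18 tested members of the list of methylation genes, Dnmt3a was the 1 called, and it was also the 1 member whose KO and CTRL libraries did not overlap. Over all genes, 7.56% were separated with KO above CTRL and 7.26% with KO below. Dnmt3b, the second de novo enzyme, was at 132 and 119 CPM in CTRL and 143, 130 and 140 CPM in KO, a log2 difference of 0.13 (95% interval −0.05 to 0.31). Dnmt1, the maintenance enzyme, differed by 0.10 (−0.14 to 0.34), and Uhrf1, which brings DNMT1 to replicated DNA, by 0.18 (−0.05 to 0.42). Tet1, Tet2 and Tet3, the oxidases that begin demethylation, differed by −0.08, −0.12 and −0.10. Tdg, a glycosylase that removes oxidised 5-methylcytosine, had the second smallest p of the list, at 26.4 and 24.2 CPM in CTRL and 25.5, 14.0 and 18.2 CPM in KO (−0.39, 95% interval −0.87 to 0.09). On the log2 scale the interval of Dnmt3b ended at 0.31, and Dnmt3a was at −1.43. The genes differ in level, so these values do not compare amounts of RNA, and whether Dnmt3b makes up for Dnmt3a was not tested. Per kilobase of exon the level in CTRL was 114 CPM for Dnmt1, 24.6 for Dnmt3b and 10.1 for Dnmt3a. In KO Dnmt3a was at 3.75. The length covers all annotated exons of a gene, 16642 bases for Dnmt3a, and can be longer than the transcript made. Before division by length Dnmt3a was above Dnmt3b in CTRL, at 169 and 168 CPM against 132 and 119 CPM. The order of these genes therefore depends on the length used. Dnmt3l, a catalytically inactive partner of the de novo enzymes, was at 0.0333 to 0.263 CPM and was not tested.

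The gene with the smallest p was BC018473 (ENSMUSG00000056032, chromosome 11, 116752167 to 116759373, plus strand), annotated by GENCODE as an antisense RNA with no protein. No annotated gene overlaps it. The first 300 bases of its longest transcript of 4753 bases are shown, as the annotated start of a gene all but absent in CTRL. They lie within exon 1 at chr11:116752167-116752466 on the plus strand of GRCm38 (GENCODE vM21). Where transcription started in KO was not measured. The capitals mark their CG pair, the kind of site that DNMT3A methylates.

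BC018473: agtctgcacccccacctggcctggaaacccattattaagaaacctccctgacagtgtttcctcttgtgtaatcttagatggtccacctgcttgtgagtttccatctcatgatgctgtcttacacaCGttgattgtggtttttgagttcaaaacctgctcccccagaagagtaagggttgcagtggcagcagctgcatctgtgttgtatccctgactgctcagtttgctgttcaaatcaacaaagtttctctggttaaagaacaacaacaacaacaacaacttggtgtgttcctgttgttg

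These bases hold 1 CG pair and 45.3% G or C. The first 300 bases of all 131058 annotated transcripts of at least that length hold a median of 8 CG pairs, and 96.6% hold at least 1. This counts letters and says nothing on whether the site was methylated.

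BC018473 had 0 reads in CTRL-1326 and 1 read in CTRL-1330, against 1639 reads in KO-1327, 1745 in KO-1333 and 1942 in KO-1334. In CPM this was 0 and 0.0333 in CTRL and 53.9, 59.6 and 62.8 in KO. The 3 KO libraries were close to each other, whichever the sex. The ratio of the counts was 3490 (exact 95% interval 626 to 1.38e+05, which covers counting error only), and BC018473 rose in KO with an edgeR adjusted p of 3.37e-07. Per kilobase of exon its level in KO was 10.7 CPM, beside 10.1 CPM for Dnmt3a in CTRL. Both lengths cover all annotated exons, 5471 bases for BC018473 and 16642 bases for Dnmt3a. These values depend on those lengths and do not compare numbers of transcripts. The strand setting of the counting is unknown here, so its transcribed strand rests on the annotation.

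St6galnac1 (ENSMUSG00000009588, chromosome 11, 116765025 to 116775507, minus strand) lies 5.651 kb beyond the end of BC018473 by coordinate. As it is on the minus strand, that gap is to its annotated end, and its annotated start is farther away, at 116775507. It encodes an enzyme that adds sialic acid to O-linked sugars and makes the sialyl-Tn antigen. It had 0 reads in both CTRL libraries and 117, 106 and 109 reads in the KO libraries, which is 3.85, 3.62 and 3.53 CPM. The level was thus at least 72.5-fold higher in KO, taking 3 counts in all of CTRL as the limit that 0 reads allow, and St6galnac1 rose with an edgeR adjusted p of 0.00166. BC018473 and St6galnac1 were the 2 genes with at least 1 CPM in every KO library and at most 3 reads in CTRL. No gene met the reverse rule, although without KO-1333 there were 3 that did, without CTRL-1330 there were 2, and without CTRL-1326 or KO-1327 there was 1. Without CTRL-1326, 4 genes met the rule for KO.

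2 more genes at lower coordinates were higher in every KO library without passing the threshold. The unprocessed pseudogene Gm11735 (116739062 to 116749833, minus strand), 2.333 kb below BC018473, was looked up after its values were seen. It had 0 reads in CTRL and 25, 22 and 36 reads in KO, at least 18.1-fold more by the same limit, with an edgeR adjusted p of 0.13. St6galnac2 (116675303 to 116694868, minus strand), a sialyltransferase of the same family, lies 57.298 kb below BC018473 and was read in both groups. It was at 3.78 and 5.27 CPM in CTRL and 11.6, 11.8 and 14.0 CPM in KO, a log2 fold change of 1.46 ± 0.19 (edgeR adjusted p = 0.087). DESeq2, edgeR without a low-count filter and the robust edgeR fit each called both genes.

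The difference did not extend evenly along the chromosome. Of the 12 tested genes within 250 kb of BC018473, 4 had all KO libraries above CTRL (7.56% of all genes) and 1 had them below (7.26%). Those above include the called St6galnac1, and Gm11735 and St6galnac2 named before. The fourth of those above was Mxra7, at 0.307 and 0.433 CPM in CTRL and 0.889, 0.615 and 0.582 CPM in KO (log2 fold change 0.90 ± 0.49, edgeR adjusted p = 0.9998). Mettl23, a methyltransferase gene, lay below, at 35.7 and 32.8 CPM in CTRL and 27.4, 26.2 and 29.4 CPM in KO (−0.31 ± 0.11, edgeR adjusted p = 0.9998). The groups overlapped for Srsf2, which encodes a splicing factor, with a log2 fold change of 0.09 ± 0.09. They also overlapped for Jmjd6, Mfsd11, Rhbdf2, Ube2o, Sphk1 and 1810032O08Rik. Rhbdf2 and Ube2o lie on the far side of St6galnac2, at 0.01 ± 0.12 and 0.05 ± 0.11.

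**Figure D2:**
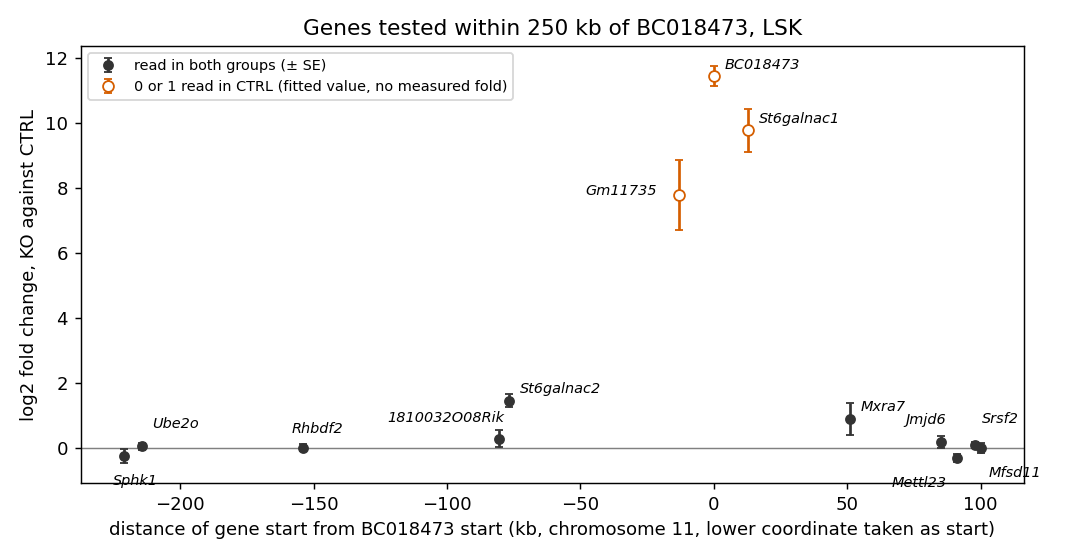
Each point is a gene tested within 250 kb of BC018473, placed by the distance of its lower coordinate from that of BC018473 in kb, with its log2 fold change of KO against CTRL and its SE. Open points are genes with 0 or 1 read in CTRL, whose fitted value is no measured fold. BC018473, St6galnac1 and Gm11735 stand far above their neighbours, St6galnac2 lies at 1.46, and genes farther out lie between −0.31 and 0.90.

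**Figure D3:**
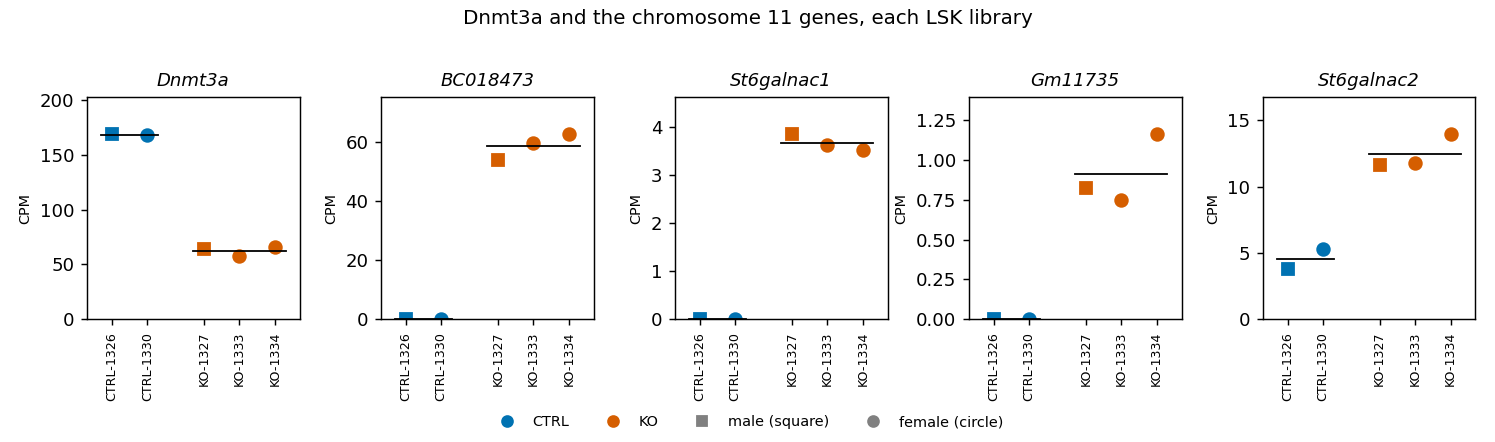
CPM in each LSK library of Dnmt3a and 4 chromosome 11 genes, with CTRL in blue, KO in orange, squares for males, circles for females and a line at each group mean. Dnmt3a is lower in all KO libraries. BC018473, St6galnac1 and Gm11735 are at or near 0 in CTRL, and St6galnac2 is at 3.78 to 5.27 CPM in CTRL and 11.6 to 14.0 CPM in KO.

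Among sialyltransferases, the enzymes that place sialic acid on glycoproteins and glycolipids, the difference was not shared by the family. Of 17 tested members St6galnac1 was the 1 called, and the median log2 fold change was 0.01. In the list 3 had KO above CTRL (7.56% of all genes) and 2 below (7.26%). St3gal4, which helps to build ligands for selectins, was the third above, at 49.5 and 52.9 CPM in CTRL and 55.6, 61.2 and 60.6 CPM in KO (0.21, 95% interval 0.00 to 0.42). St8sia4, a polysialyltransferase, lay below, at 255 and 241 CPM in CTRL and 212 to 234 CPM in KO. St6galnac3, St6galnac4 and St6galnac6, which lie on other chromosomes, overlapped between the groups.

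The genes next in order of evidence did not pass the threshold and are given by their values. They were chosen by small p among genes whose KO and CTRL libraries do not overlap, so their separation is no further support. Serpinh1, a chaperone of collagen in the endoplasmic reticulum, was at 4.63 and 4.6 CPM in CTRL and 10.1, 11.7 and 10.6 CPM in KO (1.22 ± 0.16, edgeR adjusted p = 0.087). Pcbp4, an RNA-binding protein, was at 6.54 and 6.10 CPM in CTRL and 12.3, 17.7 and 16.0 CPM in KO (1.28 ± 0.18, edgeR adjusted p = 0.13). For both genes every KO library was well above both CTRL libraries, in males and in females. Lama4, a laminin chain of vascular basement membranes, was at 0.852 and 0.867 CPM in CTRL and 2.37, 5.78 and 3.14 CPM in KO (2.12 ± 0.42, edgeR adjusted p = 0.59). Ggt1, which breaks down glutathione outside the cell, was at 1.4 and 1.6 CPM in CTRL and 2.80, 5.02 and 5.72 CPM in KO. Tfpi, an inhibitor of coagulation, was at 32.0 and 38.7 CPM in CTRL and 50.8, 53.2 and 48.5 CPM in KO, with a smaller log2 fold change of 0.52 ± 0.11. The rest of the 10 leading genes above CTRL were Myo7a, Efna1, Plch1 and Lgals1, with log2 fold changes of 0.32 to 1.36.

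On the other side, Cdkn2c was first by the same choice. It encodes p18INK4c, an inhibitor of CDK4 and CDK6 that holds cells in G1 and is known for limiting stem cell division. It was at 46.5 and 40.5 CPM in CTRL and 26.9, 25.2 and 24.1 CPM in KO (−0.78 ± 0.11, edgeR adjusted p = 0.13). The KO libraries lay close together and below both CTRL libraries, with log2 differences of −0.78 between males and −0.71 between females. DESeq2, edgeR without a low-count filter and the robust edgeR fit called it. The non-coding gene 9630013D21Rik, 3.022 kb away and looked up after its values were seen, was at 1.4 and 2.37 CPM in CTRL and 0.362, 0.547 and 0.453 CPM in KO (−2.04 ± 0.40, edgeR adjusted p = 0.59). Of 5 tested CDK inhibitors, Cdkn2c was the 1 with separated groups, with KO below (7.26% of all genes). Cdkn1a, Cdkn1b, Cdkn1c and Cdkn2d overlapped, at log2 fold changes of −0.09 to 0.04.

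Scube3, a secreted cell surface protein, was at 18.0 and 18.8 CPM in CTRL and 8.39, 11.4 and 10.4 CPM in KO (−0.87 ± 0.15, edgeR adjusted p = 0.40). Klrk1, the activating receptor NKG2D, was at 2.9 and 4.23 CPM in CTRL and 1.38, 1.26 and 1.36 CPM in KO (−1.41 ± 0.28, edgeR adjusted p = 0.59). Klf4, a transcription factor of monocytes that is also an immediate early gene, was at 7.33 and 8.87 CPM in CTRL and 3.95, 4.96 and 4.62 CPM in KO (−0.84 ± 0.19, edgeR adjusted p = 0.93). In each of them the groups were apart by more than the range of the KO libraries, which the choice of these genes favoured. The other leading genes below CTRL were Lgals3, Caskin2, Itgb7, Ahnak, Ccr2 and Chil3, at log2 fold changes of −0.82 to −0.56.

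**Figure D4:**
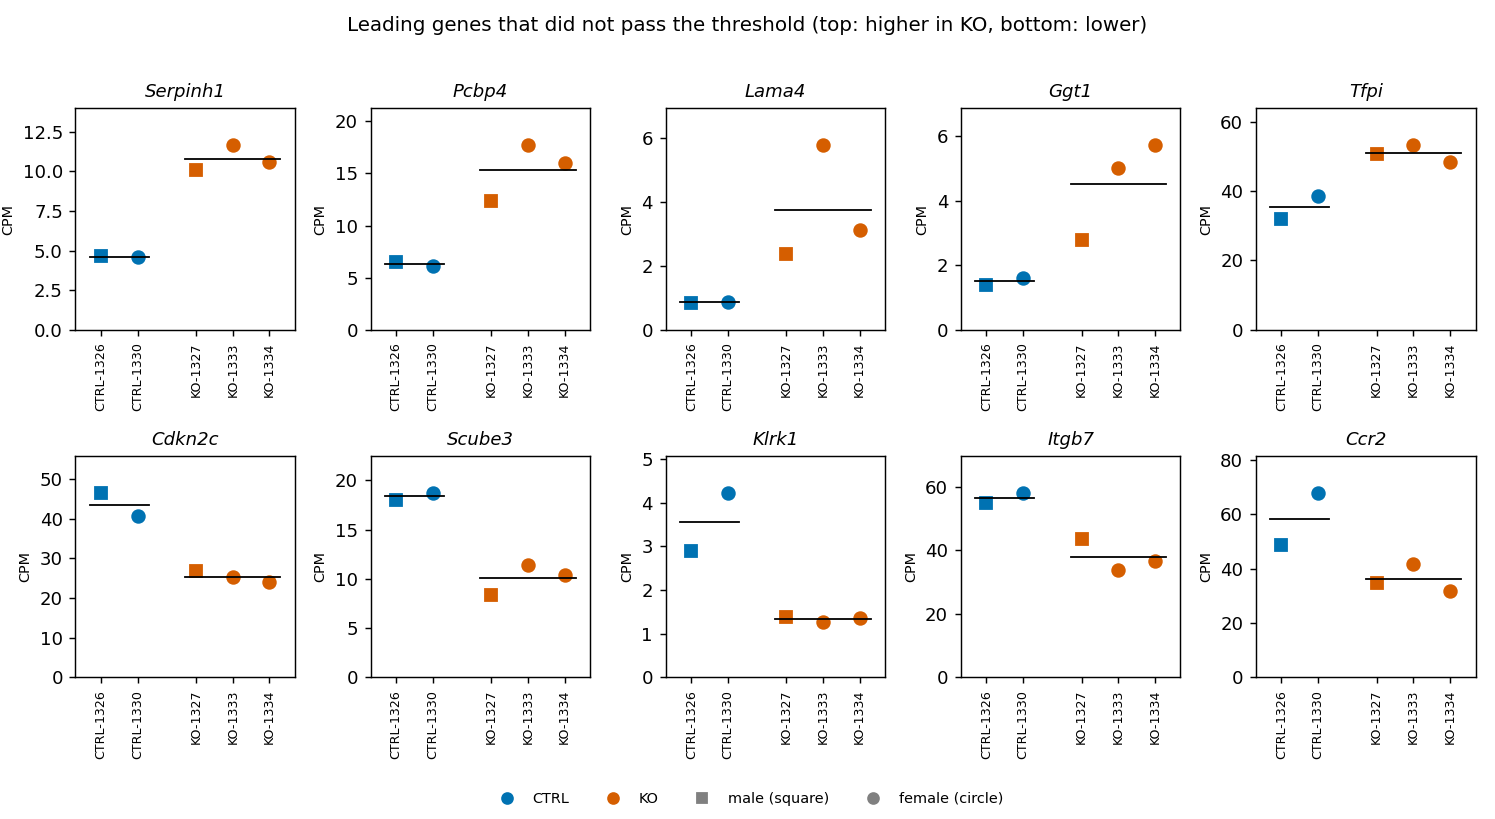
CPM in each LSK library of 10 leading genes that did not pass the threshold, drawn as for the called genes, with 5 above CTRL in the upper row and 5 below in the lower row. No KO library overlaps CTRL in any panel, which is how these genes were chosen.

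The median of the stem cell list was close to its CTRL level. Of 37 tested stem cell genes none was called, and the median log2 fold change was 0.01. In the list 5 had KO above CTRL (7.56% of all genes) and 3 below (7.26%). Hlf, a transcription factor of the most immature stem cells, was at 326 and 264 CPM in CTRL and 296, 260 and 261 CPM in KO. Mecom, which stem cells need to persist, was at 123 and 106 CPM in CTRL and 108, 130 and 117 CPM in KO. Meis1 was at 297 and 284 CPM in CTRL and 298, 317 and 301 CPM in KO, with groups that all but touched (0.07, 95% interval −0.11 to 0.25). Neo1, a netrin receptor, had the greatest positive value in the list, with 3.78 and 3.67 CPM in CTRL and 4.11, 6.08 and 7.60 CPM in KO (0.67, 95% interval 0.07 to 1.27). Of 17 tested Hox and Hox cofactor genes 2 lay above (7.56% of all genes) and 2 below (7.26%), with a median of 0.00. Hoxa9 was at 69.4 to 77.4 CPM in all 5 libraries.

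Proliferation genes differed little, with most values slightly positive. Mki67, a marker of cycling cells, was at 1107 and 1057 CPM in CTRL and 1216, 1032 and 997 CPM in KO, a log2 fold change of 0.00 (95% interval −0.27 to 0.27). Cdk6, the kinase that p18INK4c binds, was at 1369 and 1363 CPM in CTRL and 1466, 1347 and 1235 CPM in KO. Of 31 tested proliferation genes 25 had a positive log2 fold change, with a median of 0.08 (0.01 without CTRL-1330, 0.03 without KO-1333). The median was −0.07 between the males and 0.16 between the females. E2f1 was the 1 gene with separated groups, with KO above (7.56% of all genes). It was at 25.7 and 30.1 CPM in CTRL and 30.9, 36.6 and 38.7 CPM in KO (0.35, 95% interval 0.04 to 0.65). Over all genes 50.8% of log2 fold changes were positive and 49.2% negative. Of 54 tested replication-dependent histone genes 50 were negative, and 3 were separated with KO below (7.26% of all genes). Their median of −0.14 came to −0.01 without CTRL-1326, −0.05 without KO-1334 and −0.25 without CTRL-1330.

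Most genes of myeloid progenitors and of early lymphoid priming overlapped between the groups. Mpo, the main enzyme of neutrophil granules, was at 1502 and 1405 CPM in CTRL and 1202, 1449 and 1265 CPM in KO. Of 19 tested granulocyte-monocyte progenitor genes 3 lay above CTRL (7.56% of all genes) and 1, Ly6c2, below (7.26%). The median was −0.13. In the lymphoid-primed list, Flt3, a receptor of multipotent progenitors, was at 582 and 459 CPM in CTRL and 585, 457 and 457 CPM in KO. In that list 1 of 15 tested genes was separated: Bcl11a, a transcription factor of early lymphoid cells, at 151 and 159 CPM in CTRL and 184, 175 and 171 CPM in KO (0.19, 95% interval 0.03 to 0.35). Dntt, which adds bases at V(D)J joins, was highest in KO-1327 at 630 CPM and otherwise at 397 to 456 CPM, so that library stood apart from both groups. The lymphoid-primed median of 0.12 was −0.10 without KO-1327 and 0.00 without CTRL-1330, and that of the myeloid progenitor list lay between −0.18 and −0.05 as single libraries were left out.

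Genes of antigen presentation lay mostly below CTRL. Of 22 tested genes of dendritic cells and MHC class II, 21 had negative log2 fold changes and 11 had every KO library below CTRL, beside 7.26% of all genes, and none was called. The median was −0.48. H2-Aa, a chain of MHC class II, was at 89.7 and 133 CPM in CTRL and 84.9, 63.6 and 49.3 CPM in KO (−0.76, 95% interval −1.24 to −0.28, edgeR adjusted p = 0.9998). H2-Eb1, a second class II chain, was at 47.1 and 87.3 CPM in CTRL and 43.6, 39.1 and 27.1 CPM in KO. Cd74, the invariant chain that escorts class II, was at 108 and 179.5 CPM in CTRL and 104, 100 and 63.2 CPM in KO. In each of them CTRL-1330 was far above the rest and CTRL-1326 only just above KO-1327, so that the male pair differed little: the median over the list was −0.10 between the males and −0.51 between the females. Itgax, which encodes CD11c, was at 7.57 and 8.50 CPM in CTRL and 6.25, 4.24 and 3.88 CPM in KO. Xcr1 and Clec9a, which mark a dendritic subset, were highest in CTRL-1330 and overlapped otherwise. Without CTRL-1330 the median was −0.32. The summed level of the list was 953 and 1136 CPM in CTRL and 673 to 915 CPM in KO. In these bulk samples fewer cells of a type and less RNA per cell cannot be told apart.

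Genes of T and NK cells were low and mostly below CTRL. Of 28 tested, 23 were negative and 10 were separated with KO below, beside 7.26% of all genes. None was called, and the median of −0.35 stayed between −0.47 and −0.30 as each library was left out. Cd8a, a T cell co-receptor, was at 3.92 and 3.43 CPM in CTRL and 2.17, 1.81 and 1.94 CPM in KO (−0.89, 95% interval −1.44 to −0.35). Cd3d and Cd3g, subunits of the T cell receptor complex, were at 1.23 to 1.74 CPM in CTRL and 0.582 to 1.2 CPM in KO. Cd3e, of the same complex, went the other way in 2 KO libraries and was at 0 in KO-1333. Nkg7 had the highest level of these genes that mark killer cells, at 129 and 102 CPM in CTRL and 108, 94.6 and 90.4 CPM in KO, with overlap. The summed level was 220 and 178.9 CPM in CTRL and 163 to 190 CPM in KO. Whether admixed mature cells have a part in these differences was not tested.

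Genes of mast cells, basophils and eosinophils had a median of −0.53 over 18 tested members. Of these 17 were negative and 3 separated with KO below, beside 7.26% of all genes. The median stayed negative in every alternative, but its size depended on CTRL-1330: it was −0.05 without that library and −0.60 to −0.37 without any of the others, and it was −0.19 between the males and −0.47 between the females. Epx, an eosinophil peroxidase, was at 3.58 and 9.37 CPM in CTRL and 2.14, 3.28 and 4.20 CPM in KO. Fcer1a, the IgE receptor chain, was at 5.55 and 6.57 CPM in CTRL and 4.48, 4.61 and 2.55 CPM in KO. Mast cell tryptase Tpsab1 was at 0 in all 5 libraries.

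Neutrophil genes gave a direction that turned on the CTRL libraries, while the monocyte list stayed negative in every alternative. Of 21 tested neutrophil genes 18 were negative and 4 separated with KO below (7.26% of all genes), with a median of −0.27. The list stood higher in CTRL-1326 than in CTRL-1330 by 0.69 on the log2 scale, more than it differed between the groups; the median was 0.22 without CTRL-1326 and −0.63 without CTRL-1330. Lyz2, the lysozyme of myeloid cells, was at 266 and 244 CPM in CTRL and 213, 189 and 202 CPM in KO (−0.34, 95% interval −0.53 to −0.16). S100a8, an abundant neutrophil protein, was at 85.9 and 52.9 CPM in CTRL and 65.7, 90.6 and 71.0 CPM in KO. Of 18 tested monocyte and macrophage genes 14 were negative. In that list 4 were separated below (7.26% of all genes) and 1, Cd68, above (7.56%). Its median of −0.22 was −0.07 without CTRL-1330, −0.09 without KO-1327, −0.40 without CTRL-1326 and −0.52 without KO-1333.

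Most B cell genes had positive values, while Ighm, Jchain and most immunoglobulin variable segments had negative ones. Of 19 tested B cell genes 16 were positive and 2 separated with KO above (7.56% of all genes). The median of 0.30 was −0.02 without KO-1327, 0.17 without CTRL-1330, 0.49 without KO-1334 and 0.78 without CTRL-1326. The summed level of the list ran the other way, at 851 and 880 CPM in CTRL and 792, 709 and 620 CPM in KO. Most of that sum is Jchain and Ighm, the IgM heavy chain, which was at 387 and 569 CPM in CTRL and 436, 315 and 328 CPM in KO (−0.41, 95% interval −0.81 to −0.01). Vpreb1, a part of the pre-B cell receptor, was at 6.58 CPM in KO-1327 and at 1.2 to 1.63 CPM elsewhere. KO-1327 thus held its highest level, as it did of Dntt. Immunoglobulin variable segments were looked at after their values were seen. Every KO library was below CTRL for 38 of the 137 tested (7.26% of all genes) and above for 9 (7.56%). Their median was −0.59 and none was called. The heavy chain variable segments summed to 141 and 164 CPM in CTRL and 90.8, 110 and 82.5 CPM in KO. Kappa variable segments overlapped, at 221 and 169 CPM in CTRL and 126, 172 and 107 CPM in KO. Lambda segments all but touched, at 18.4 CPM in CTRL-1330 and in KO-1333. Class-switched heavy constant genes overlapped too, at 643 and 444 CPM in CTRL and 284, 468 and 329 CPM in KO. The median log2 fold change of the 5 tested was 0.004. Jchain, which plasma cells use to join antibody units, was at 315 and 195 CPM in CTRL and 154, 242 and 165 CPM in KO. Segments are near copies of each other, so the share of reads given to each is uncertain.

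Most erythroid and all tested megakaryocyte genes overlapped between the groups, as did most of all genes tested. Of 23 tested erythroid genes 1 was separated, with KO below (7.26% of all genes). Klf1, the erythroid master regulator, was at 27.2 and 37.7 CPM in CTRL and 31.1, 37.9 and 34.0 CPM in KO. Of 21 tested megakaryocyte genes none was separated, beside 7.56% of all genes above and 7.26% below. Thbs1, which platelets store, was at 106 CPM in CTRL-1330 and at 3.17 to 12.1 CPM in the other 4 libraries, so its log2 fold change of −2.65 rested on 1 library; without CTRL-1330 it was 1.45. Of 9 tested stromal and endothelial genes 2 lay below CTRL, beside 7.26% of all genes. Among them was Cxcl12, the niche factor that holds stem cells in marrow. It was at 3.44 and 1.87 CPM in CTRL and 0.527, 0.991 and 1.71 CPM in KO. The list median of −0.38 was −0.04 without CTRL-1326, −0.17 without KO-1327 and −0.24 without CTRL-1330. Dcn, Lum and Bglap, made by fibroblasts and bone cells, were at 0 to 0.0682 CPM.

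**Figure D5:**
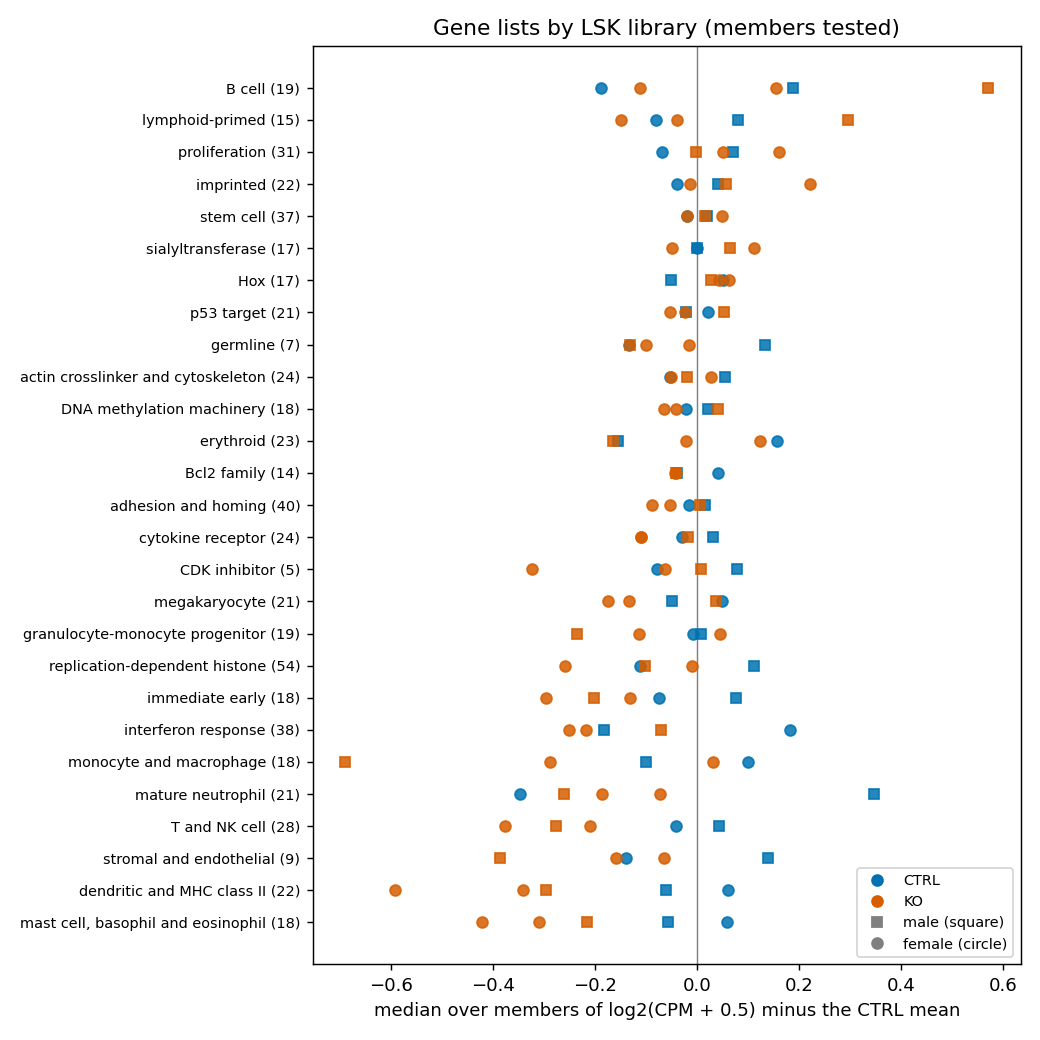
Each row is a gene list with its number of tested members, and each point is a library: the median over the members of log2(CPM + 0.5) minus the CTRL mean, with CTRL in blue, KO in orange, squares for males and circles for females. The T and NK cell, mast cell, dendritic and immediate early lists have all 3 KO libraries below both CTRL libraries. The neutrophil, B cell and interferon lists have CTRL libraries or KO-1327 at least as far apart as the group means.

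Interferon genes matter here because poly(I:C) acts through interferon and drives Mx1-Cre. Of 38 tested, 36 had a negative log2 fold change, beside 49.2% of all genes, and 8 had every KO library below CTRL, beside 7.26% of all genes, with a median of −0.20 and none called. The median was 0.10 between the males, −0.43 between the females, 0.01 without CTRL-1330 and −0.38 without CTRL-1326. Ifit1, an interferon-induced sensor of foreign RNA, was at 7.77 and 13.6 CPM in CTRL and 6.78, 6.66 and 6.89 CPM in KO (−0.65, 95% interval −1.16 to −0.15). Oas3, which makes the messenger that activates RNase L, was at 31.8 and 44.5 CPM in CTRL and 27.1, 31.5 and 23.7 CPM in KO. Irf7, the regulator that amplifies the response, was at 15.0 and 27.5 CPM in CTRL and 13.9 to 16.3 CPM in KO. Here too CTRL-1330 held the highest level.

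Genes of adhesion and homing bear on the question that the title of the series names, the movement of progenitors to the liver. Of 40 tested none was called, 2 lay above CTRL (7.56% of all genes) and 6 below (7.26%), and the median was −0.05. Itgb7, the integrin chain that pairs with alpha 4 to enter gut tissue, was at 54.8 and 58.1 CPM in CTRL and 43.5, 33.7 and 36.5 CPM in KO (−0.58 ± 0.12, edgeR adjusted p = 0.72). Ccr2, the receptor that guides monocytes and progenitors to CCL2, was at 48.9 and 68.1 CPM in CTRL and 34.8, 41.9 and 31.6 CPM in KO (−0.70 ± 0.16, edgeR adjusted p = 0.93). Cxcr2, a receptor of neutrophil chemokines, was at 10.2 and 9.86 CPM in CTRL and 6.19, 7.90 and 6.37 CPM in KO. These 3 had KO below CTRL, whereas Cxcr4, the receptor that retains stem cells in marrow, was at 191 and 195 CPM in CTRL and 180, 190 and 207 CPM in KO (0.00, 95% interval −0.18 to 0.17). Itga4, the partner of Itgb7, overlapped between the groups at 317 to 381 CPM.

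Immediate early genes, which respond within minutes to signals and to handling, had 6 of 18 tested members with KO below CTRL (7.26% of all genes) and none above (7.56%), with a median of −0.20 that was −0.09 without KO-1333 and −0.33 without KO-1334. Junb was at 45.6 and 45.3 CPM in CTRL and 40.5, 39.6 and 40.5 CPM in KO, and Fos was at 10.5 and 9.23 CPM in CTRL and 6.09, 4.10 and 14.1 CPM in KO. Their part in other differences was not tested.

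2 kinds of genes that DNA methylation is known to silence were counted as well. Of 22 tested imprinted genes 5 had KO above CTRL (7.56% of all genes) and 2 below (7.26%), with a median of 0.07 and none called. Dlk1, a paternally expressed gene, was at 0.341 and 0.167 CPM in CTRL and 0.823, 0.786 and 0.647 CPM in KO (1.55, 95% interval 0.38 to 2.73, edgeR adjusted p = 0.9998). H19, a maternally expressed RNA, was at 0.170 and 0.0667 CPM in CTRL and 0.428, 0.239 and 0.420 CPM in KO. Both are low, and the imprinted genes with high levels, Kcnq1ot1, Igf2r and Grb10, overlapped. Of 32 germline genes 7 had enough reads to be tested and 11 had no read in any library; Tdrd9 had KO above CTRL, at 0.886 and 1.10 CPM in CTRL and 1.13 to 1.33 CPM in KO. Genes such as Dppa3, Sycp1 and Mael, which are silent in most adult cells, were at 0 in all 5 libraries.

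In the other lists most members overlapped between the groups. Over all genes 7.56% lay above CTRL and 7.26% below. Of 24 tested cytokine receptors 3 lay below CTRL and 1 above, among them Il10ra, the receptor of interleukin 10, at 43.4 and 42.0 CPM in CTRL and 39.3, 30.2 and 31.4 CPM in KO. Of 24 tested cytoskeletal genes 3 lay above and 1 below; Tpm4, a tropomyosin, was at 53.7 and 48.9 CPM in CTRL and 61.3, 61.4 and 61.3 CPM in KO. Of 21 tested p53 targets 1 lay above and 2 below, and of 14 genes of the Bcl2 family 2 lay below. None of these was called.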

How the data were processed

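RNA was taken from sorted LSK cells for 3 KO and 2 CTRL libraries, and a ribosome-depleting, strand-marking kit for total RNA was used, per the labels' protocols. The deposited raw table holds the authors' read counts for each Ensembl gene. The submitters' processing notes name DESeq 1.18.0, DESeq2 1.4.5, HTSeq 0.5.3p3 and STAR and the build mm10 (GRCm38), without roles, and name no annotation release. The deposited normalized table is a signal: each library's counts over its own size factor, tested with a tolerance of 0.1%, and gave an alternative scaling. Of 45513 rows 44671 matched GENCODE vM21 by gene ID, the source of symbols, coordinates and the printed sequence. Sex-linked reads put a male and a female animal in each group. For KO-1333 and KO-1334, which are female alike, the numbers in the titles are the sole sign that they are separate animals. The p-values thus rest on the spread among libraries, which may in part be technical.

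Counts were tested with edgeR 4.0.16 in R 4.3.3 (filterByExpr, minimum count 10; TMM; the quasi-likelihood test, two-sided, Benjamini-Hochberg over 17238 genes, threshold 0.05, 3 residual degrees of freedom). SE was taken as |log2 fold change|/√F. Intervals are at 95%, floors are 3 counts over a group, and both kinds of counting interval cover counting error only, since reads are not independent molecules. Separated means that no KO library overlaps a CTRL library in CPM. Alternatives were DESeq2 1.42.0, limma-voom (limma 3.58.1), other scalings and filters, a robust fit, a sex term and each library left out. Counts of the same 17238 genes were also simulated with 200 changed, all drawn from genes at a mean of at least 1 CPM. There edgeR recovered 75% at a 2-fold change, with 19 false among 169 calls, and 94.5% at a 4-fold change, with 23 false among 212. With so many true changes the adjustment is milder than with the few calls made here. These shares therefore do not give the chance that a 2-fold change would be called in this comparison.

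The comparison and the 29 gene lists were chosen with earlier results of these data known. Named were Dnmt3a, called genes, the 10 uncalled separated genes per direction with the smallest p and a mean of at least 1 CPM, tested neighbours within 250 kb and genes read in 1 group. The rule also took for each list the 3 members with the smallest p and the most abundant, of which a part is printed; other list members are named for their role, some after their values were seen. A called gene and a list member are not reported here.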

Additional observations from a re-analysis of the deposited data

How the results depend on the processing

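Dnmt3a, BC018473 and St6galnac1 kept their direction and an adjusted p under 0.05 in all 14 alternatives; Dnmt3a ranged from −1.47 to −1.37. The count of 4 called genes (2 higher, 2 lower) was 21 with DESeq2 (10 and 11), 27 without a low-count filter (11 and 16) and 10 with the robust fit (6 and 4). Scaling by the total count gave 3, with 1 lower. Leaving out each library in turn gave 3 to 11 calls, with 2 to 6 higher and 1 to 7 lower; where a group fell to 1 library it was assumed to vary like the other. limma-voom, 2 other scalings, the stricter filter and a sex term gave 4. The rule for genes read in 1 group gave, for KO, 2 genes, 3 at 0.5 CPM, 1 where CTRL had to hold 0 reads, and 2 to 4 as libraries were left out. For CTRL it gave 0, 1 at 0.5 CPM and 0 to 3. The cause was not tested. No paired analysis was possible because the groups share no replicate numbers.

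Some genes that were not called changed sign. On the log2 scale, over libraries left out, the values ran for Cdk6 from −0.079 to 0.042, Cdkn1a from −0.076 to 0.20, Cdkn1b from −0.17 to 0.020, Cdkn1c from −0.21 to 0.056, Cdkn2d from −0.034 to 0.13, Cxcr4 from −0.060 to 0.043, Dnmt3aos from −0.19 to 0.050, Dntt from −0.11 to 0.26, Flt3 from −0.22 to 0.12, Fos from −0.95 to 0.037, Hlf from −0.26 to 0.043, Hoxa9 from −0.073 to 0.0051. They ran for Igf2r from −0.12 to 0.10, Irf7 from −0.83 to 0.048, Jmjd6 from −0.080 to 0.48, Kcnq1ot1 from −0.069 to 0.17, Kit from −0.25 to 0.056, Klf1 from −0.14 to 0.33, Ly6a from −0.11 to 0.043, Ly6g from −1.42 to 0.49, Mecom from −0.055 to 0.16, Mfsd11 from −0.15 to 0.17, Mki67 from −0.090 to 0.055, Rhbdf2 from −0.034 to 0.060. They ran for S100a8 from −0.18 to 0.52, Sphk1 from −0.56 to 0.14, Srsf2 from −0.014 to 0.20, St6galnac3 from −0.063 to 0.47, Tet1 from −0.22 to 0.0097, Thbs1 from −3.61 to 1.45, Ube2o from −0.0055 to 0.13, Vpreb1 from −0.34 to 1.31, Xcr1 from −1.62 to 0.35. Of the other alternatives, with scaling by the total count Cxcr4 was at 0.015 and Mki67 was at 0.018; with a sex term Flt3 was at 0.00086 and Igf2r was at −0.033 and Mfsd11 was at −0.029 and Mki67 was at 0.023 and Rhbdf2 was at −0.0023; with limma-voom Igf2r was at −0.0029. Further, with DESeq2 Mfsd11 was at −0.00063, with the deposited size factors Mfsd11 was at −0.00059, with the stricter filter Mki67 was at 0.0035.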

Other observations

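Copies of the ribosomal protein gene Rps3a set 2 KO libraries apart from the other 3 libraries, an observation made after the values were seen. The processed pseudogene Rps3a3 was at 1.60 and 1.17 CPM in CTRL-1326 and CTRL-1330, at 0.923 CPM in KO-1333, and at 127 and 131 CPM in KO-1327 and KO-1334. The pseudogene Rps3a2 was at 18.7 and 19.8 CPM in KO-1327 and KO-1334 and at 1.47 to 2.67 CPM in the other 3 libraries. Gm9493 was at 4.67 and 5.01 CPM in KO-1327 and KO-1334 and at 0.308 to 0.545 CPM elsewhere. The protein-coding copy Rps3a1 stood the other way, at 528 and 549 CPM in KO-1327 and KO-1334 and at 800 to 892 CPM in the other 3 libraries. KO-1327 is male and KO-1334 female, and KO-1333 lay with CTRL, so the pattern follows neither sex nor genotype. Reads of near-identical copies can be given to either, and how they were split here was not tested.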
